A study of Homo sapiens with 8 samples.

Results

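Latrophilins, FLRTs and further synaptic adhesion genes were followed in neuroblastoma cells with and without TRPM7 knockdown. The genes were LPHN1, LPHN2, LPHN3, FLRT2, FLRT3, NRXN2, CNTNAP2, LINGO1 and LINGO4, by the symbols of the array table, and every probe with such a symbol was taken. They are 9 of the 31426 symbols of the Illumina HumanHT-12 v4 bead array and are measured by 13 of its 47322 probes, with 2 probes each for 4 of the genes. The set was chosen by the knockdown differences of LPHN3, LINGO4 and CNTNAP2, that is, by their signals in TRPM7 shRNA and control cells on these same arrays. Their values are therefore given as a description without a test, while the other 6 genes, which came along as relatives, are given with tests. In current nomenclature LPHN1, LPHN2 and LPHN3 are ADGRL1, ADGRL2 and ADGRL3.

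Total RNA came from SH-SY5Y cells, a neuroblastic line, and from SH-EP2 cells, an epithelial-like line, both human neuroblastoma subclones of SK-N-SH. All cells had been stably transduced with a lentivirus, which carried a scrambled shRNA in the control cells and an shRNA against TRPM7, an ion channel fused to a kinase, in the TRPM7 shRNA cells. Each of the 4 groups (SH-SY5Y control, SH-SY5Y TRPM7 shRNA, SH-EP2 control and SH-EP2 TRPM7 shRNA) has 2 arrays, 8 in all. The duplicates are not said to be separate cultures, so the p-values measure only the spread between these samples, which may be technical. The arrays cover a single TRPM7 shRNA, whose action on TRPM7 and on other transcripts cannot be told apart. In bulk RNA, fewer cells of a kind and less RNA per cell cannot be told apart either.

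Latrophilins are adhesion G protein-coupled receptors that sit mostly on neurons. They bind FLRT proteins, which are leucine-rich repeat proteins of the opposing membrane, and teneurins, and these contacts guide axons and help to form synapses. Neurexins are presynaptic receptors whose partners are neuroligins, LRRTM proteins and cerebellins. CNTNAP2, also called Caspr2, is a neurexin-like protein that pairs with contactins and clusters potassium channels along the axon. LINGO1 is a co-receptor of the Nogo receptor complex, which restrains axon growth, and LINGO4 is a less studied relative of it.

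The arrays read transcripts and not promoters, and the table used here holds no probe sequences and no probe positions within the genes. For orientation, the RefSeq sequence (GRCh38.p14) of the 250 bases upstream of the annotated start is shown for the 3 genes that prompted the choice and for FLRT3, the other gene called in a knockdown comparison. Each runs 5′ to 3′ on the strand of its gene, with CG dinucleotides in capitals, because these windows differ mainly in their CG content.
LPHN3, chr4:61200076-61200325, plus strand: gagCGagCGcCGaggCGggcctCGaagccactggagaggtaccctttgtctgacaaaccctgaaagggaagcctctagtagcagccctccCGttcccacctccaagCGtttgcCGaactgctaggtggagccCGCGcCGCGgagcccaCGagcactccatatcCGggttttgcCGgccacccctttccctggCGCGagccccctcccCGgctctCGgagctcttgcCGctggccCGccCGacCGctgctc
FLRT3, chr20:14337613-14337862, minus strand: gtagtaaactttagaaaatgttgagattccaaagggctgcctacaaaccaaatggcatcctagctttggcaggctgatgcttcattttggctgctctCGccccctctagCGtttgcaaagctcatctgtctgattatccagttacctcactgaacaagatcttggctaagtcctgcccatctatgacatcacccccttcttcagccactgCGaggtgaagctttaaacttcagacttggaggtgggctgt
CNTNAP2, chr7:146116551-146116800, plus strand: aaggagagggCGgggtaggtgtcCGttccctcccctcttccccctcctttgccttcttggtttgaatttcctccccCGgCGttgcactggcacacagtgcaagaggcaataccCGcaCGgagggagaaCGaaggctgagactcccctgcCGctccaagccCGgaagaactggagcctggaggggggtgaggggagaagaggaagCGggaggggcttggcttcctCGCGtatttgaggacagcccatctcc
LINGO4, chr1:151805420-151805669, minus strand: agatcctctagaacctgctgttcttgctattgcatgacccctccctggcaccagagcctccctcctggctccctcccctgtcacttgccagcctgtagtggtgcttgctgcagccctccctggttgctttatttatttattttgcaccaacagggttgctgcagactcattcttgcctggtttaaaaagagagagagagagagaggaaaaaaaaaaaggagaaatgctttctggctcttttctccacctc
The LPHN3 window holds 23 CG dinucleotides, and 25.8% of the 35116 windows of this length in the table hold at least as many. LPHN3 has a second annotated start, which is not shown. The CNTNAP2 window holds 12, close to the median of 11 over all windows. FLRT3 holds 3, a count that 77.1% of windows reach, and LINGO4 holds 0. The E-box CAGGTG and the TATA motif TATAAA, searched on both strands, are in none of these 4 windows, against 17.5% and 10.7% of all windows. The GC box GGGCGG is in the LPHN3 and CNTNAP2 windows and in 42.6% of all windows. A motif match is a description of letters and no binding site. The table of start sites has windows for 7 of the 9 genes, all but LPHN1 and NRXN2.

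Array quality was similar throughout. Between 40.8% and 44.2% of the probes were detected, meaning a detection p-value under 0.05 against the negative control beads, and median bead signals ran from 104.7 to 119.9 in arbitrary linear units. Replicate arrays correlated at r = 0.981 to 0.985. The background estimated by the RMA model lay at 98.3 to 111.1 with an SD of 6.71 to 8.05, so bead signals in that range are not told from background. The probe for TRPM7 failed detection throughout (detection p-values 0.0753 to 0.201), so the knockdown itself cannot be read here. Markers were read from the brightest probe of each gene. Of 12 noradrenergic neuroblastoma markers, 11 were detected in SH-SY5Y control cells (all but TH), whereas 6 of the 12 were undetected in SH-EP2 control cells, among them PHOX2A and DBH. All 12 mesenchymal markers were detected in SH-EP2 control cells, and 8 of 12 on both SH-SY5Y control arrays (a dimmer COL1A2 probe was detected there as well). The Schwann lineage markers SOX10 and S100B were not detected in any group. The summed noradrenergic level, in which the brightest genes weigh most, was 37443 to 38199 on the SH-SY5Y control arrays. It was 26864 to 28783 on the SH-SY5Y TRPM7 shRNA arrays. The median log2 level of these markers was 11.03 in control and 11.05 in TRPM7 shRNA cells, so not all of them fell. The summed mesenchymal level was 17312 to 18563 and 15822 to 15847 on the same arrays, with median log2 levels of 6.01 and 5.93. The part of these differences in the results below was not tested.

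Of the 13 probes, 10 were detected on at least 1 array, 3 on all 8 and 3 on none. The undetected probes were the second probes of LPHN1 (ILMN_2342630), FLRT3 (ILMN_1782750) and NRXN2 (ILMN_1763047), and no level is given for them. In SH-SY5Y cells, 4 of the 13 probes had an adjusted p-value under 0.05 in limma against 2.11% of all probes, but 3 of these belong to genes chosen for that change. Of all probes detected on at least 1 array, 3.48% were called. Among the 9 probes of the 6 other genes, 1 was called, and it was higher in TRPM7 shRNA cells, against 0.807% of all probes called higher and 1.3% called lower. In SH-EP2 cells 0 of these 9 probes were called by limma, 2 had an unadjusted p-value under 0.05, and 3.02% of all probes were called (1.48% higher and 1.54% lower, and 5.01% of the detected probes). For the difference of the knockdown change between the lines, limma called 0 of the 9, with 2 at an unadjusted p-value under 0.05, against 1.4% of all probes. The median log2 change over the 13 probes was 0.20 in SH-SY5Y cells and -0.05 in SH-EP2 cells, against 0.0048 and 0.0061 over all probes. These member medians take in the 4 probes of the picked genes and the 3 undetected probes, so they are a description only. The SH-SY5Y median is itself the value of the undetected LPHN1 probe.

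**Figure D1:**
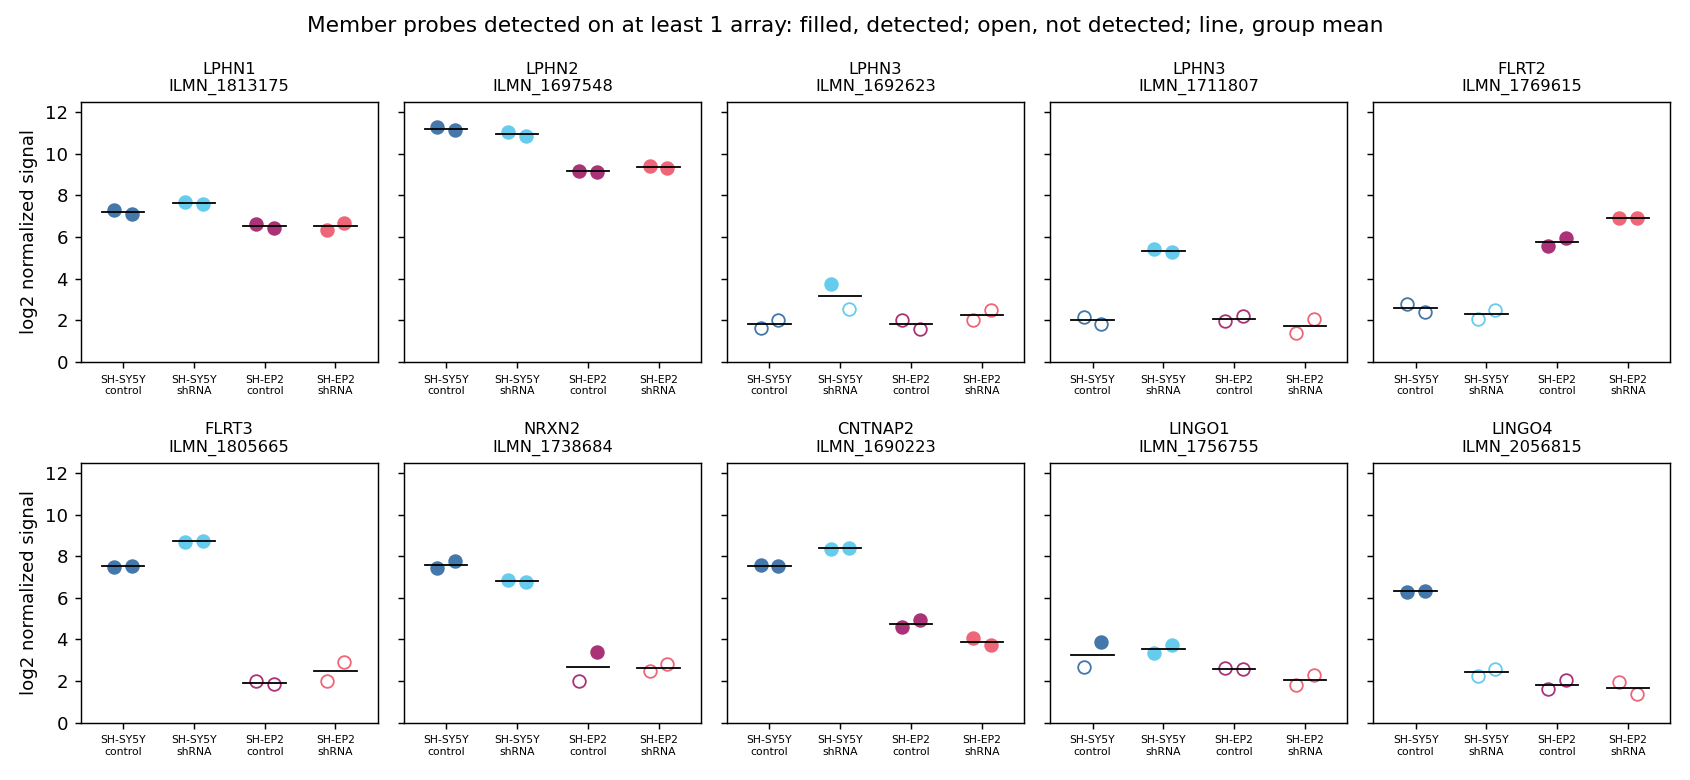
Log2 normalized signal (y axis) of the 10 probes detected on at least 1 array, 1 panel a probe, with 2 arrays in each of the 4 groups (x axis). Filled points were detected, open points were not, and the line is the group mean. LPHN3 (ILMN_1711807) is detected on the 2 SH-SY5Y TRPM7 shRNA arrays alone, LINGO4 on the 2 SH-SY5Y control arrays alone, and FLRT2 on the 4 SH-EP2 arrays alone.

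The 3 latrophilins behaved differently from one another. LPHN3, a latrophilin largely restricted to the nervous system, was detected only in SH-SY5Y TRPM7 shRNA cells. Its brighter probe ILMN_1711807 gave bead signals of 105.1 and 95.5 in SH-SY5Y control cells and of 162.3 and 162.6 in SH-SY5Y TRPM7 shRNA cells. In SH-EP2 cells the same probe read 108.7 and 108.8 in control cells and 102.2 and 110.7 in TRPM7 shRNA cells, all at background. On the log2 normalized scale the SH-SY5Y means were 2.00 ± 0.23 and 5.35 ± 0.12 (SD, n = 2 each), which makes LPHN3 at least 4.56-fold higher in the TRPM7 shRNA cells. Such a bound sets the mean of the brighter group against the lowest signal detected on the other arrays, or the probe's own signal there where that is higher. The LPHN3 bound holds for the main processing only. The fitted log2 difference was 3.35 and rests on the background correction, since it was 0.53 when no background was subtracted.

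The second LPHN3 probe, ILMN_1692623, barely left the background. It read 98.0 and 97.6 in SH-SY5Y control cells and 128.7 and 115.3 in SH-SY5Y TRPM7 shRNA cells, and only the array at 128.7 passed detection. Both probes were thus brighter on the TRPM7 shRNA arrays, but the log2 differences of 1.34 and 3.35 are far apart. For this probe the bound is 1.00-fold, meaning that no fold is measured. In SH-EP2 cells it read 100.4 to 116.1 and was not detected.

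LPHN2, the broadly expressed member of the family, was the brightest of all 13 probes and was detected on all 8 arrays. Bead signals were 2762 and 1905 in SH-SY5Y control cells, 2275 and 2250 in SH-SY5Y TRPM7 shRNA cells, 708.4 and 638.9 in SH-EP2 control cells, and 799.5 and 759.0 in SH-EP2 TRPM7 shRNA cells. After normalization the SH-SY5Y means were 11.21 ± 0.10 and 10.97 ± 0.14, a log2 difference of -0.23 (SE 0.093, adjusted p = 0.313 in limma). In SH-EP2 cells they were 9.15 ± 0.01 and 9.38 ± 0.07, a difference of 0.23 (adjusted p = 0.277 in limma). The knockdown difference thus had opposite signs in the lines, and the contrast between them was 0.46 (95% interval 0.18 to 0.74), which did not pass after adjustment (adjusted p = 0.113 in limma).

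LPHN1, which is common in brain, was also detected on every array by its brighter probe ILMN_1813175. It read 281.8 and 213.1 in SH-SY5Y control cells, 328.4 and 341.8 in SH-SY5Y TRPM7 shRNA cells, 215.0 and 191.1 in SH-EP2 control cells, and 197.1 and 214.4 in SH-EP2 TRPM7 shRNA cells. In SH-SY5Y cells the arrays of the groups did not overlap, as was true of 39.1% of all probes, and the log2 difference of 0.43 (SE 0.17) did not pass the threshold (adjusted p = 0.275 in limma). In SH-EP2 cells the arrays overlapped and the difference was -0.03 (95% interval -0.38 to 0.32, adjusted p = 0.973 in limma).

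FLRT2 and FLRT3, ligands of the latrophilins and of UNC5 receptors, were each detected in 1 line only. FLRT3 (ILMN_1805665) read 309.1 and 251.2 in SH-SY5Y control cells and 535.8 and 601.9 in SH-SY5Y TRPM7 shRNA cells. In SH-EP2 cells it read 104.1 to 120.7 and was at background throughout. Among the genes that were not picked for their change, FLRT3 was the only one called in a knockdown comparison. Its log2 means in SH-SY5Y cells were 7.52 ± 0.04 and 8.71 ± 0.02 (SD, n = 2 each), a 2.27-fold rise (log2 1.18, SE 0.29, adjusted p = 0.0366 in limma). The size held at 1.16 to 1.21 when each SH-SY5Y array was left out in turn, but the call did not (adjusted p = 0.171 and 0.197 without control replicates 1 and 2, and 0.258 and 0.260 without TRPM7 shRNA replicates 1 and 2, in limma). It was also lost in a variance model without an intensity trend (adjusted p = 0.293 in limma).

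FLRT2 was detected in SH-EP2 cells alone. It read 101.9 to 114.5 in SH-SY5Y cells, where it was not detected, 163.1 and 167.7 in SH-EP2 control cells, and 236.1 and 231.7 in SH-EP2 TRPM7 shRNA cells. The SH-EP2 groups did not overlap, which held for 42.9% of all probes. Log2 means were 5.76 ± 0.28 and 6.91 ± 0.01, a 2.22-fold difference (log2 1.15, SE 0.34) that missed the threshold (adjusted p = 0.0819 in limma). It passed in 6 of 16 alternatives, among them SH-EP2 normalized and fitted alone (adjusted p = 0.000149 in limma) and no background subtraction (adjusted p = 5.32e-05 in limma). The knockdown differences of FLRT2 and FLRT3 were not shown to differ between the lines, with contrasts of 1.47 and -0.64 on the log2 scale (adjusted p = 0.197 and 0.659 in limma). The contrast passed in 2 of 15 alternatives for FLRT2 and in 3 of 15 for FLRT3, all of them other background settings (adjusted p down to 0.00219 and 3.33e-05 in limma), and each contrast includes a line in which the probe was undetected.

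**Figure D2:**
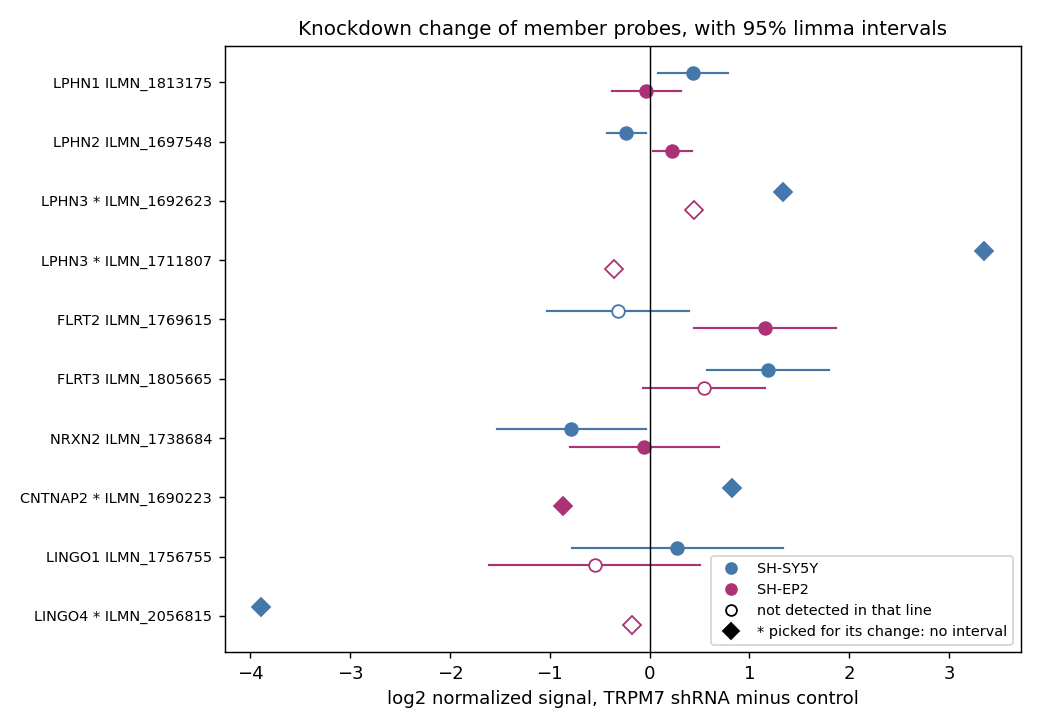
Fitted log2 difference, TRPM7 shRNA minus control (x axis), of the same 10 probes (y axis) in SH-SY5Y (blue) and SH-EP2 (purple). Bars are 95% limma intervals of genes not picked for their change, diamonds are the picked genes and carry no interval, and open symbols were not detected in that line. LINGO4 at -3.89 and LPHN3 at 3.35 lie farthest from 0, and CNTNAP2 lies on opposite sides of 0 in the 2 lines.

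CNTNAP2 differed in opposite directions in the 2 lines. Its probe ILMN_1690223 was detected on all 8 arrays, so both differences are measured and not bounds. Bead signals were 317.9 and 249.0 in SH-SY5Y control cells and 448.7 and 506.6 in SH-SY5Y TRPM7 shRNA cells, with every TRPM7 shRNA array above both controls. In SH-EP2 cells they were 140.0 and 138.9 in control cells and 133.7 and 128.5 in TRPM7 shRNA cells, with every TRPM7 shRNA array below both controls. The log2 means were 7.55 ± 0.03 and 8.37 ± 0.04 in SH-SY5Y cells, which is 1.77-fold higher, and 4.76 ± 0.23 and 3.89 ± 0.24 in SH-EP2 cells, which is 1.83-fold lower (SD, n = 2 each). In SH-EP2 cells these signals are close to the background, and the log2 difference of -0.87 shrank to -0.14 without background subtraction. In SH-SY5Y cells the value stayed between 0.57 and 0.97 over all alternatives.

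NRXN2, a neurexin, was detected in SH-SY5Y cells by ILMN_1738684. It read 299.0 and 272.7 in control cells and 237.2 and 244.5 in TRPM7 shRNA cells. These groups did not overlap, as was true of 39.1% of all probes. The log2 means were 7.59 ± 0.23 and 6.80 ± 0.07, and the difference of -0.78 (SE 0.36) did not pass the threshold (adjusted p = 0.404 in limma). It passed in 3 of 17 alternatives, namely normexp, no background subtraction and SH-SY5Y fitted alone (adjusted p = 0.00381, 0.000983 and 0.0168 in limma). In SH-EP2 cells it read 109.7 to 120.2 and passed detection on 1 of the 4 arrays, a control array.

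LINGO4 was detected on the SH-SY5Y control arrays alone. Its probe ILMN_2056815 read 195.0 and 168.1 there, 111.4 and 115.6 in SH-SY5Y TRPM7 shRNA cells, and 100.3 to 110.4 in SH-EP2 cells. The log2 means in SH-SY5Y cells were 6.31 ± 0.05 and 2.41 ± 0.25 (SD, n = 2 each), which makes LINGO4 at least 9.71-fold lower in the TRPM7 shRNA cells. The bound holds for the main processing only. The fitted log2 difference of -3.89 shrank to -0.78 without background subtraction and kept its sign in all alternatives.

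LINGO1, the best known member of that family, stayed near the background. It read 111.2 and 114.8 in SH-SY5Y control cells, where 1 of 2 arrays passed detection, and 124.2 and 130.1 in SH-SY5Y TRPM7 shRNA cells, where both did. After normalization the groups overlapped (3.28 ± 0.84 and 3.55 ± 0.26), and the log2 difference was 0.28 (adjusted p = 0.915 in limma). In SH-EP2 cells it read 108.7 to 117.3 and was not detected.

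**Figure D3:**
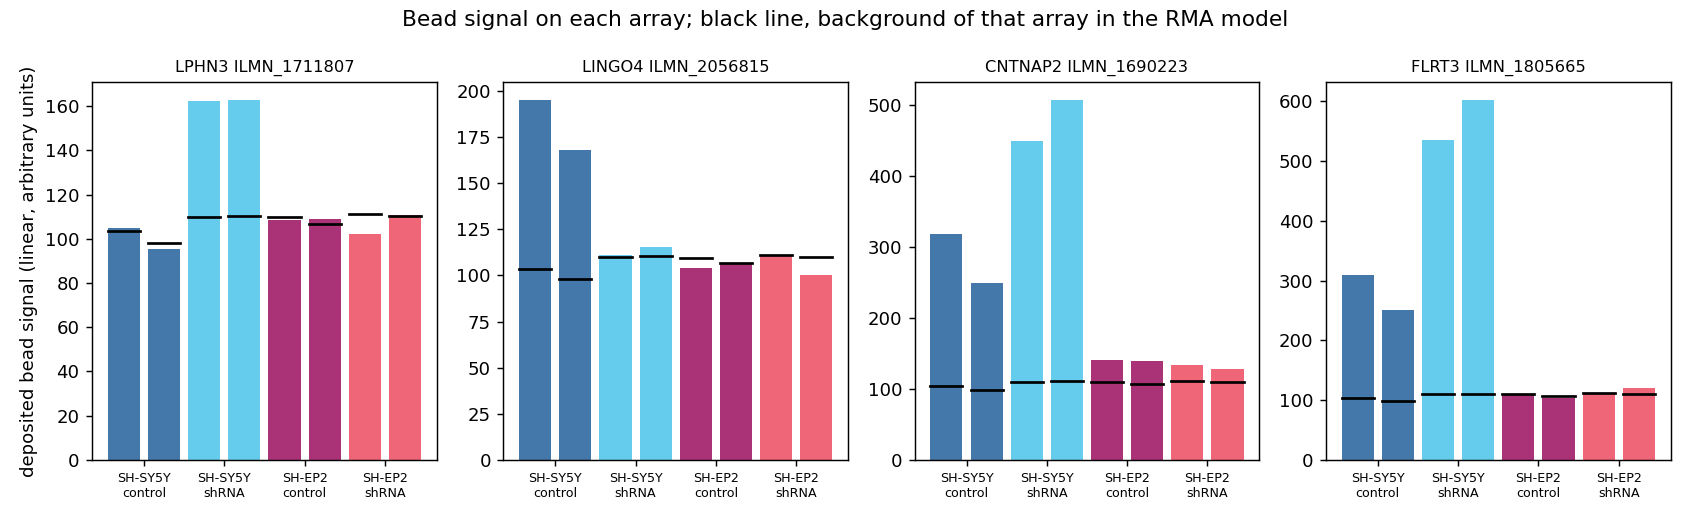
Deposited bead signal (y axis, linear arbitrary units, starting at 0) of LPHN3, LINGO4, CNTNAP2 and FLRT3 on each of the 8 arrays (x axis, 2 bars a group). The black line is the background of that array in the RMA model. LPHN3 reaches 162.6 and LINGO4 195.0 at most, against backgrounds of 98.3 to 111.1, and FLRT3 reaches 601.9.

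The lines themselves differed in most of these genes before any knockdown. Comparing control cells only, 7 of the 13 probes were called, against 26.2% of all probes, but these include the picked genes CNTNAP2 and LINGO4. All 7 were among the 10 probes detected on at least 1 array, whereas the 26.2% takes in probes detected on none. Of the 9 probes of genes not picked, 4 were called higher in SH-SY5Y (LPHN1, LPHN2, FLRT3 and NRXN2) and 1 in SH-EP2 (FLRT2). Of all probes, 14% and 12.2% were called in these directions. FLRT3 was at least 19.6-fold higher in SH-SY5Y cells (adjusted p = 4.58e-12 in limma), and LPHN2 was 4.15-fold higher (adjusted p = 5.34e-13 in limma). NRXN2 was lower in SH-EP2 cells by a fitted log2 of -4.89 (adjusted p = 8.13e-10 in limma). As 1 of the 2 SH-EP2 arrays did not pass detection, its size is not well measured, at -4.23 without SH-EP2 control replicate 1, -5.58 without SH-EP2 control replicate 2 and -1.42 without background subtraction. LPHN1 was 1.58-fold higher (adjusted p = 0.00448 in limma), a call that was lost without SH-EP2 control replicate 2 (adjusted p = 0.0564 in limma) and without an intensity trend (adjusted p = 0.0529 in limma). FLRT2 was at least 6.06-fold higher in SH-EP2 cells (adjusted p = 2.46e-07 in limma). Both FLRT bounds rest on the background correction, since without it the log2 differences, SH-EP2 minus SH-SY5Y, were 0.56 for FLRT2 and -1.49 for FLRT3, both still past the threshold.

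The picked genes share these control arrays with the comparison that picked them, so their line differences are again a description. CNTNAP2 had a log2 mean of 7.55 in SH-SY5Y and 4.76 in SH-EP2 control cells. LINGO4 was at least 8.44-fold higher in SH-SY5Y control cells. This bound holds for the main processing only. The LINGO4 log2 difference, SH-EP2 minus SH-SY5Y, was -4.48 there and -0.88 in the alternative that shrank it most. LPHN3 was undetected in control cells of both lines. SH-SY5Y cells thus carried the FLRT3, NRXN2, CNTNAP2 and LINGO4 transcripts above background, while SH-EP2 cells carried FLRT2 and, close to background, CNTNAP2, and LPHN1 and LPHN2 were present in both.

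Known partners of these proteins were listed in 7 groups by role. The lists hold 89 symbols, 85 of which are on the array with 126 probes (the 4 missing symbols are newer names of the ODZ genes), and 79 probes from 63 genes were detected on at least 1 array. In SH-SY5Y cells 5 of the 126 partner probes rose and 1 fell, against 0.807% and 1.3% of all probes. In SH-EP2 cells 3 rose and 2 fell, against 1.48% and 1.54% of all probes. Each of these named changes kept its sign in every alternative run, but the sizes and calls were not equally firm. The fold bounds given below for CNTN6, CNTN1, DLG2 and RTN4 hold for the main processing only. Their log2 differences were 0.30, 0.29, -0.29 and 0.39 in the alternative that shrank each most. In the variance model without an intensity trend all of the named changes but DLG2 lost the call. The calls of TNFRSF19 in both lines and of CBLN2 were lost in no other alternative. Those of CBLN4 and CNTN6 were lost when any SH-SY5Y array was left out, and that of CBLN4 also without either SH-EP2 TRPM7 shRNA array, with adjusted p-values up to 0.332 and 0.184 in limma over all alternatives. Those of CNTNAP1 and IL1RAPL1 were lost when any SH-EP2 array was left out, and that of CNTNAP1 also with median scaling, with adjusted p-values up to 0.457 and 0.272 in limma. DLG2 was lost without SH-SY5Y control replicate 1 or either TRPM7 shRNA array, ODZ3 without SH-SY5Y control replicate 2, the CNTN1 probe ILMN_1661852 without SH-SY5Y control replicate 1, and RTN4 without replicate 1 of either SH-EP2 group (adjusted p up to 0.114, 0.362, 0.0902 and 0.0959 in limma over all alternatives).

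Teneurins are the other ligands of latrophilins. ODZ3, which encodes teneurin-3, rose in SH-SY5Y TRPM7 shRNA cells from 8.63 ± 0.29 to 9.33 ± 0.01 (log2 0.70, adjusted p = 0.00377 in limma), and its log2 difference in SH-EP2 cells was -0.29 (adjusted p = 0.331 in limma). ODZ4 was detected in SH-SY5Y cells alone, with log2 means of 8.88 and 8.86 (adjusted p = 0.99 in limma), and ODZ1 was not detected. Of the UNC5 receptors, which bind FLRTs, UNC5A, UNC5B and UNC5C were detected, and none of their probes passed in either line (adjusted p = 0.417 to 0.993 in limma).

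Contactins are the membrane partners of the Caspr family. CNTN6 passed detection in no group but SH-SY5Y TRPM7 shRNA cells, where it was at least 3.17-fold higher than in control cells (adjusted p = 0.0261 in limma). A CNTN1 probe (ILMN_1661852) behaved in the same way, at least 1.39-fold higher (adjusted p = 0.00471 in limma). The brighter CNTN1 probe (ILMN_2400407) had a log2 difference of 1.19 in SH-SY5Y cells that just missed the threshold (adjusted p = 0.0507 in limma) and of -1.05 in SH-EP2 cells (adjusted p = 0.0833 in limma). In SH-EP2 cells this probe was near background, at 3.43 in control cells and undetected in TRPM7 shRNA cells. The SH-EP2 fold is thus only bounded, at 1.19 or more in the main processing. The fitted differences differ between the lines by -2.24 (adjusted p = 0.00846 in limma). That call was lost without an intensity trend and without SH-SY5Y TRPM7 shRNA replicate 1. The contrast was -0.71 in the alternative that shrank it most. CNTNAP1, the Caspr protein of the junctions beside the node of Ranvier, rose in SH-EP2 cells (log2 0.45, adjusted p = 0.0438 in limma).

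Cerebellins are secreted proteins that bridge neurexins to postsynaptic receptors. CBLN4 rose in SH-SY5Y cells from 3.74 ± 0.51 to 5.56 ± 0.11 (log2 1.83, SE 0.47, adjusted p = 0.0462 in limma). Its control level was close to the lowest detected signals of those arrays (3.08 and 3.24). The CBLN4 difference was 0.35 in the alternative that shrank it most. CBLN2 fell in SH-EP2 cells from 9.77 ± 0.07 to 8.79 ± 0.003 (log2 -0.98, adjusted p = 6.28e-05 in limma). Of the postsynaptic partners, 22 probes were detected and 1 passed, IL1RAPL1, a synaptic organizer of the interleukin-1 receptor family, which rose in SH-EP2 cells (log2 1.33, adjusted p = 0.0212 in limma) and was not detected in SH-SY5Y cells. That is 1 of 22, against 5.01% of the detected probes called in SH-EP2 cells. NLGN1 and NLGN2, neuroligins that bind neurexins, were detected on all arrays and did not pass in either line. NRXN3 was detected on 1 array of 8. Among the scaffold proteins of the synapse, DLG2, also known as PSD-93, was at least 3.04-fold lower in SH-SY5Y TRPM7 shRNA cells (adjusted p = 0.0143 in limma).

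In the Nogo receptor complex of LINGO1, TNFRSF19 (TROY) passed in both lines with opposite signs. It rose in SH-SY5Y cells from 6.91 ± 0.06 to 7.61 ± 0.04 (adjusted p = 0.000678 in limma) and fell in SH-EP2 cells from 11.03 ± 0.13 to 9.84 ± 0.02 (adjusted p = 1.30e-06 in limma). RTN4, which encodes the ligand Nogo, was at least 3.86-fold higher in SH-EP2 TRPM7 shRNA cells by ILMN_1748983 (adjusted p = 0.00498 in limma). Its brighter probes ILMN_1730611 and ILMN_2352036, at log2 levels of 12.2 and 9.85 in SH-EP2 control cells, did not pass (adjusted p = 0.663 and 0.574 in limma). LINGO2 was detected in SH-SY5Y cells alone at 8.51 and 8.96 (adjusted p = 0.579 in limma), and LINGO3 was not detected.

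**Figure D4:**
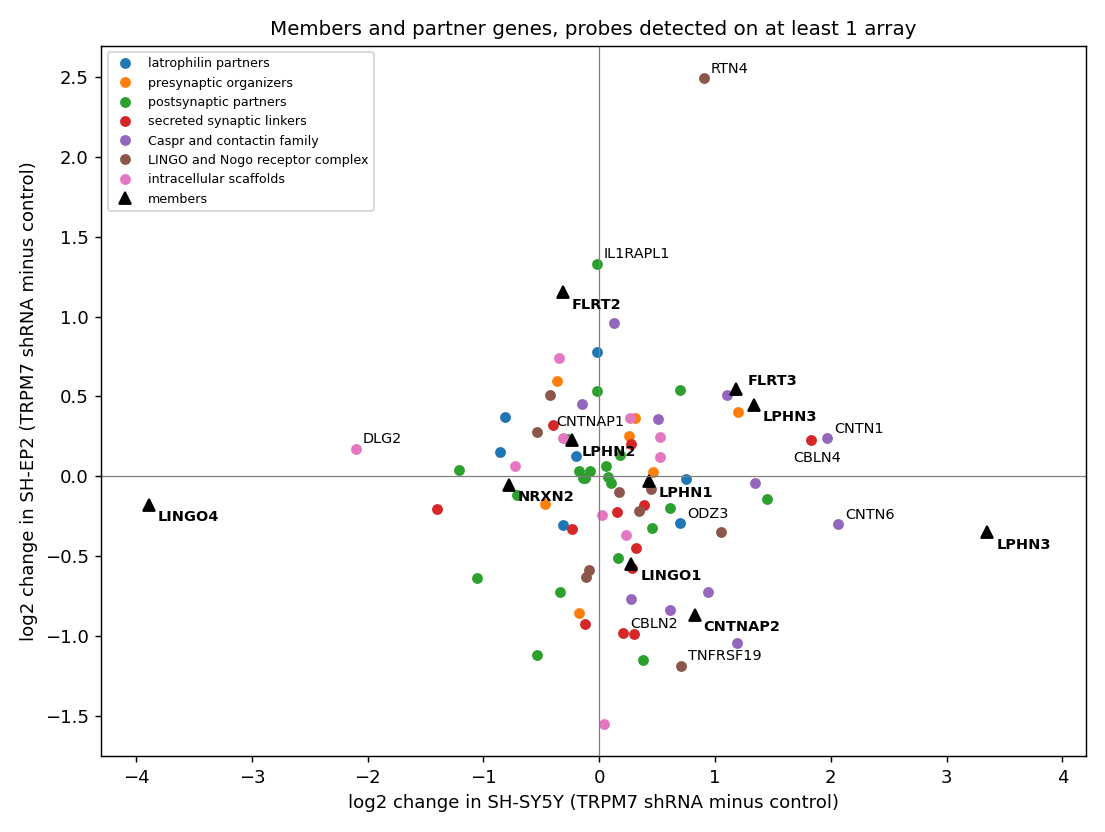
Log2 difference, TRPM7 shRNA minus control, in SH-SY5Y (x axis) and SH-EP2 (y axis) for partner probes detected on at least 1 array (circles, coloured by group) and for the 10 detected member probes (triangles, bold names). Lighter names mark partner probes that passed in a line. TNFRSF19 lies at 0.70 and -1.19, the same quadrant as CNTNAP2 at 0.82 and -0.87.

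Finally, the genes whose signals ran most like the 3 picked genes over the 8 arrays were found among 6198 probes that were detected in a group and ranged over at least 2 log2 units. Pearson's r is given as a description, since the points are 4 groups of 2 arrays and the genes were chosen for it. LPHN3 ran most like KLHL14 (r = 0.979), ABCC8 (r = 0.971) and C18orf34 (r = 0.970). LINGO4 ran most like ODAM (r = 0.987) and DLG2 (r = 0.981). CNTNAP2 ran most like TSPAN13 (r = 0.998), ITGA9 (r = 0.996) and MAP7D2 (r = 0.996).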

How the data were processed

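Gene expression was measured in 8 samples, grouped by the cell line and shRNA of their labels. Scanned arrays were summarised by the authors in GenomeStudio 2011.1 (per the labels). They deposited linear bead intensities without normalization, each with its detection p-value. The methods name Robust-Multi-Array normalization, and Multi Experiment Viewer as the source of fold differences and p-values, without naming the test. Depth does not apply to arrays, and their number limits the precision.

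Here intensities were corrected with the RMA background model, written anew in R 4.3.3, brought to common quantiles across the 8 arrays and log2 transformed, without a filter. All 47322 probes entered 1 limma 3.58.1 model with 4 group means (lmFit, then eBayes with a trend on intensity). Two-sided p-values were adjusted by Benjamini-Hochberg across the whole table, at a threshold of 0.05. The procedure was tested on simulated data. Log2 changes of 2 were planted there in brighter probes only, so the simulation does not cover signals near background. A probe with a detection p-value under 0.05 counts as detected. Of the probes, 3270 have no symbol in the table and could not be named.

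The members, partner lists and tests were chosen with earlier results of these data known. Every member probe is named. Partner genes are named where a probe passed in a knockdown comparison, its arrays did not overlap and both arrays of the brighter group detected it. ODZ1, ODZ4, UNC5A, UNC5B, UNC5C, NRXN3, NLGN1, NLGN2, LINGO2, LINGO3 and further probes of CNTN1 and RTN4 were added for context after their values were seen. Some listed or selected genes are not reported singly here. Sequences and current symbols are from RefSeq (GRCh38.p14).

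For the background, alternatives were neqc with an offset of 16, normexp with an offset of 50, and none at all, where signals under 1 were raised to 1. Further alternatives were scaling to the median, a filter for detection on 2 or more arrays, no trend in eBayes, each line fitted alone, a replicate block, and each array left out. A crossed block in SH-SY5Y, and these alternatives for the partner genes, were added after seeing the data. Same-numbered arrays deviated at r = -0.11 (SH-SY5Y) and -0.0045 (SH-EP2) over 14577 probes, so the numbers were not taken as pairs.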

Additional observations from a re-analysis of the deposited data

Results flagged for a closer look

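The arrays of CNTNAP2 moved in opposite directions in the lines, higher with TRPM7 shRNA in SH-SY5Y and lower in SH-EP2. The knockdown difference in SH-EP2 minus that in SH-SY5Y was -1.69 on the log2 scale, and this difference was not tested because CNTNAP2 was chosen for its change. After normalization the arrays of LPHN2 also lay apart in opposite directions, lower with TRPM7 shRNA in SH-SY5Y and higher in SH-EP2. Its deposited SH-SY5Y signals overlapped, at 2762 and 1905 in control cells and 2275 and 2250 in TRPM7 shRNA cells. Groups without overlap were found for 39.1% of all probes in SH-SY5Y and 42.9% in SH-EP2. The LPHN2 contrast of 0.46 did not pass (adjusted p = 0.113 in limma).

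By the interaction term of the limma fit, 4 of the 126 partner probes had knockdown differences that differed between the lines. Of all probes, 1.4% were called for this difference. All 4 lost the call without an intensity trend. That of CNTN1 was also lost without SH-SY5Y TRPM7 shRNA replicate 1, and that of ODZ3 without SH-EP2 control replicate 2. For TNFRSF19 the difference in SH-EP2 minus that in SH-SY5Y was -1.89 (adjusted p = 4.85e-07 in limma), with the groups apart in opposite directions. For the brighter CNTN1 probe (ILMN_2400407) it was -2.24 (adjusted p = 0.00846 in limma), for CBLN2 it was -1.19 (adjusted p = 0.000568 in limma), and for ODZ3 it was -0.99 (adjusted p = 0.00465 in limma). The CNTN1 probe was undetected in SH-EP2 TRPM7 shRNA cells, and its contrast was -0.71 in the alternative that shrank it most.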

How the results depend on the processing

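Over 32 member values and 501 alternative values, 454 kept their direction and side of the threshold, 25 lost and 15 gained the call, and 7 changed sign. The number of member probes called in SH-SY5Y, 4, became 2 without an intensity trend, 2 with the replicate block and 2 to 4 with each array left out, and the crossed block gave 4. Of these 4, all but FLRT3 are genes chosen for their change, as are the only call in SH-EP2 (CNTNAP2) and the 3 calls of the difference between the lines, so those counts describe the fit and test nothing. In SH-EP2 the 1 call became 0 with median scaling, 0 without a trend and 0 to 2 with each array left out. For the difference between the lines the 3 calls became 5 with normexp (offset 50), 6 with no background correction and 0 without a trend, and stayed at 3 with each array left out. The 7 calls between control cells, which include the picked genes CNTNAP2 and LINGO4, became 6 to 7 with each array left out. Sign changes were limited to 3 values that did not pass. With each array left out, LINGO1 in SH-SY5Y ran from -0.32 (control replicate 1 out) to 0.88. LPHN1 in SH-EP2 ran from -0.18 to 0.12, with positive values when control replicate 1 (0.057) or TRPM7 shRNA replicate 1 (0.12) was out. NRXN2 in SH-EP2 ran from -0.72 to 0.62, positive with control replicate 2 (0.62) or TRPM7 shRNA replicate 1 (0.12) out, and was 0.0037 with normexp (offset 50) and 0.00050 with no background correction. The causes were not tested.

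Over all probes, calls in SH-SY5Y were 382 higher and 617 lower, which median scaling turned to 553 and 284. The 999 calls there became 64 without a trend, 634 with control replicate 2 out and 622 with TRPM7 shRNA replicate 1 out. The 1429 calls in SH-EP2 became 100 without a trend, 2587 with the line alone and 675 to 781 with an SH-EP2 array left out. The 662 calls of the difference between the lines became 1153 with normexp, 1248 with no background correction, 23 without a trend and 399 to 417 without SH-EP2 control replicate 2 or either SH-EP2 TRPM7 shRNA array. The 6 partner probes called in SH-SY5Y became 11 with normexp (offset 50), 11 with no background correction, 1 without a trend, 10 with the line alone and 3 to 6 with each array left out. The 5 in SH-EP2 became 0 without a trend, 8 with the line alone and 2 to 6 with each array left out, and the 4 of the difference between the lines became 0 without a trend and 4 to 6 with each array left out. Between control cells the 42 ran from 35 to 43. With the replicate block FLRT3 in SH-SY5Y had an adjusted p of 0.0554 in limma, CBLN4 in SH-SY5Y and CNTNAP1 in SH-EP2 lost their calls too, and all calls were 801 in SH-SY5Y and 1136 in SH-EP2, against 1420 in SH-SY5Y with the crossed block. The slide as a block was not run, as the headers name none. Signals near background limit LPHN3, LINGO4, LINGO1 and, in SH-EP2, CNTNAP2.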
